A study of Mus musculus with 2 samples.

Results

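The collagen chain genes are the genes whose symbol is Col, a type number, the letter a and a chain number. Of 32245 gene symbols in the matrices, 44 fit this pattern, and 37 of them had at least 20 unique molecular identifiers (UMIs, each the tag of 1 captured RNA molecule) over both libraries. They were split into 11 fibrillar genes, 8 genes of basement membranes (type IV and the multiplexins Col15a1 and Col18a1) and 25 genes of other types, of which 9, 8 and 20 reached 20 UMIs. The members held 56854 UMIs in the CF-KI library and 67553 in the Control library.

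Collagens are proteins of 3 polypeptide chains wound into a helix, and each gene encodes the chain that its number names. Fibrillar collagens form the tensile fibres between cells, and in the heart fibroblasts are known as their main source. Type IV collagen forms the sheet-like network under endothelium and around cardiomyocytes and mural cells. The remaining types bind fibres together, form beaded filaments or short-chain networks, or span cell membranes.

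Single nuclei of mouse cardiac tissue were sequenced with the 10x Genomics 3′ v3 chemistry in 2 libraries, 1 for each group. CF-KI mice were Tcf21-MerCreMer;Nlrp3-A350V/A350V, with an altered Nlrp3 (the sensor protein of an inflammasome) that is silenced where Cre is absent. Control mice were Tcf21-MerCreMer;Nlrp3-WT/WT. Mice of both groups carried the tamoxifen-dependent Cre driven from Tcf21, a fibroblast gene, were given tamoxifen, and were C57Bl6/J males at an age of 3.5 months. How many animals went into a library was not stated. With 1 library per group no test of the genotype can be made: every ratio below compares these libraries, and every interval is at 95% and covers counting error only.

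The libraries held 21603653 UMIs in 15077 barcodes (CF-KI) and 18040776 UMIs in 11257 barcodes (Control), and 46 barcodes occurred in both. The median mitochondrial share per barcode was 14.2% in CF-KI and 3.46% in Control. The Control library held 126 airway epithelial-like nuclei and the CF-KI library 1, and the part of such other tissue in the results was not tested. Nlrp3 had 40 UMIs in CF-KI and 20 in Control. In fibroblast-like nuclei it had 6 and 0, and 3 UMIs, taken as the limit that a count of 0 allows, are 0.725 counts per 1000000 (CPM) there. The 6 and 0 were not particular to that class. Nlrp3 had 10 and 0 UMIs in cardiomyocyte-like, 5 and 0 in endocardial-like and 4 and 0 in endothelial-like nuclei. In macrophage-like nuclei it had 10 in CF-KI and 18 in Control. These counts cannot tell the A350V allele from the wild type. Tcf21 stood at 131 CPM in CF-KI and 130 CPM in Control fibroblast-like nuclei.

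Nuclei were grouped into classes by clustering both libraries together without any collagen gene, and classes were named from marker genes. The fibroblast-like class held 4097 CF-KI and 3572 Control nuclei, and all 7 fibroblast markers were raised in each of its 3 clusters. Different clusters held most of it in the libraries: cluster 0 had 3070 CF-KI and 165 Control nuclei, cluster 4 had 232 and 2380, and cluster 7 had 795 and 1027. The other stromal classes were mesothelial-like (651 and 668 nuclei), pericyte-like (385 and 486), endothelial-like (1787 and 901), endocardial-like (1568 and 1157), lymphatic endothelial-like (187 and 104) and adipocyte-like (114 and 174). Smooth muscle markers were also raised in the pericyte-like cluster. Cardiomyocyte-like (4558 and 2535) and macrophage-like nuclei (695 and 991) are given as a background, since neither is known as a main source of fibrillar collagen.

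Levels are given as CPM of a class's non-mitochondrial UMIs. Because a 3′ UMI level depends on the gene's own transcript, levels were compared between classes and libraries and not between genes. Among fibrillar members the totals in CF-KI and Control were 3240 and 4401 UMIs for Col1a1, 5739 and 8456 for Col1a2, 10399 and 14432 for Col3a1. Totals were 1585 and 2112 for Col5a1, 1691 and 2103 for Col5a2, 2968 and 3357 for Col5a3, 317 and 727 for Col27a1, 42 and 99 for Col11a2, and 9 and 13 for Col11a1. Of the basement membrane members, Col4a1 had 8986 and 7072 UMIs and Col4a2 4119 and 2656, the members of this group with more UMIs in CF-KI. Col4a3 had 390 and 566, Col4a4 1920 and 2300, Col4a5 600 and 830, Col4a6 70 and 139, Col15a1 2731 and 3777, and Col18a1 319 and 356.

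Other types were led in UMIs by the beaded-filament chains Col6a1 (2840 and 3158), Col6a2 (2388 and 3171) and Col6a3 (1783 and 2461), with Col6a6 at 767 and 672 and Col6a5 at 6 and 16. Of the short-chain types, Col8a1 had 1925 and 2152, Col8a2 14 and 32, and Col10a1 25 and 6. Of the types that sit on fibril surfaces, Col14a1 had 1171 and 1479, Col16a1 302 and 435, Col12a1 57 and 75, Col20a1 29 and 57, Col9a2 5 and 17, and Col9a3 20 and 15. The membrane-spanning Col23a1 had 135 and 124, Col13a1 67 and 83, Col17a1 72 and 26, and Col25a1 50 and 60. Col26a1 had 45 and 67 and Col7a1 16 and 32. The 7 members under 20 UMIs were Col2a1, Col24a1, Col9a1, Col22a1 and Col28a1, with 2 to 14 UMIs each, and Col6a4 and Col19a1, with 0.

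The start regions of 6 genes are shown because these genes were among those lower in CF-KI fibroblast-like nuclei. They were chosen after the values were seen, from regions that overlap no annotated exon, so those of Col1a2, Col4a5 and Col16a1, which overlap exons, are not shown. They were taken from RefSeq on GRCm38.p6 (the mm10 build), which matched 35 of the 44 members by symbol with 38 start regions. Col1a1, Col5a2 and Col4a3, also lower, had no match. Regions of some other lower genes, such as Col5a3, overlap no exon but were not chosen. Each run is the 150 bases before the RefSeq start, 5′ to 3′ on the gene's strand. Capitals mark matches, on either strand, to CCAAT, which many promoters carry. They also mark TATAAA, the motif that places the start in some genes, and they mark GGGCGG, the motif of the factor family around Sp1. The runs lie at chr1:45311388-45311537 on the plus strand (Col3a1), chr2:27886275-27886424 on the plus strand (Col5a1), chr4:63215262-63215411 on the plus strand (Col27a1), chr4:47207862-47208011 on the plus strand (Col15a1), chrX:141474077-141474226 on the minus strand (Col4a6) and chr1:90843972-90844121 on the minus strand (Col6a3). For Col27a1 the RefSeq start lies inside the GENCODE gene, which begins at 63214004.
Col3a1: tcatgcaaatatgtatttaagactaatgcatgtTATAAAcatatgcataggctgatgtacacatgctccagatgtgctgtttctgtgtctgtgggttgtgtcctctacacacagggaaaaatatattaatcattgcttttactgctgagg
Col5a1: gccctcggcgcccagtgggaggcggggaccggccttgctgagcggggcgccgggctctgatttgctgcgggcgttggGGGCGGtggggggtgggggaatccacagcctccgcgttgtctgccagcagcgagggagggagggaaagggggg
Col27a1: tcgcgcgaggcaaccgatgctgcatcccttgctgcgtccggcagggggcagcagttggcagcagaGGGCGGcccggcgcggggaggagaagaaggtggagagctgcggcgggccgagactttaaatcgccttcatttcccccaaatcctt
Col15a1: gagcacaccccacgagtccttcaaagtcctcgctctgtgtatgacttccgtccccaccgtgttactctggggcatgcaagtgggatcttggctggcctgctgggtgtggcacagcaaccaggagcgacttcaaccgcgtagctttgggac
Col4a6: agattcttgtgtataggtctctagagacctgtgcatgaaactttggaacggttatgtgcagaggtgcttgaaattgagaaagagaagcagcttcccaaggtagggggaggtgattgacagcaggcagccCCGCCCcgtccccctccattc
Col6a3: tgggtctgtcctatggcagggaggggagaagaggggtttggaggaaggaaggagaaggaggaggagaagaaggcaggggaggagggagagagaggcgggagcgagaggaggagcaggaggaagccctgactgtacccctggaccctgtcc

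The Col3a1 run holds a TATAAA match whose first base is 117 bases before the start. The Col5a1 and Col27a1 runs each hold a GGGCGG match, at 73 and 85 bases, and the Col4a6 run holds it on the opposite strand, at 21 bases. No match to the 3 motifs lies in the Col15a1 and Col6a3 runs. In the 250 bases before the start, GGGCGG occurred in 22 of the 38 member regions (57.9%) and in 32.7% of all 32851 RefSeq start regions. CCAAT occurred in 13 member regions (34.2%) and 33.8% of all regions, and TATAAA in 5 (13.2%) and 12.4%. By type, GGGCGG was found before 6 of 8 matched fibrillar genes, 4 of 7 basement membrane genes and 11 of 20 genes of other types. These are matches of letters and say nothing of binding.

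The type IV genes lie in head-to-head pairs, and the pairs are named here because their chains pair in protein too. In GENCODE vM21 the starts of Col4a1 and Col4a2 (chromosome 8) are 21 bases apart, those of Col4a3 and Col4a4 (chromosome 1) 72 bases, and those of Col4a5 and Col4a6 (chromosome X) 1309 bases, on opposite strands in each pair. Col3a1 and Col5a2 also lie on chromosome 1 on opposite strands, with starts 191744 bases apart.

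Collagens took the largest share of RNA in fibroblast-like nuclei of each library among the 9 classes, 0.859% of UMIs in CF-KI and 1.15% in Control. The share was 0.398% and 0.482% in mesothelial-like nuclei, 0.320% and 0.351% in pericyte-like, 0.307% and 0.321% in endothelial-like, and 0.0940% and 0.0424% in cardiomyocyte-like nuclei. The kind of collagen differed by class. Fibrillar members made up 52.0% and 55.9% of collagen UMIs in fibroblast-like nuclei and 62.6% and 68.3% in mesothelial-like nuclei, against 18.4% and 19.5% in endothelial-like nuclei. Col4a1 and Col4a2 together made up 68.2% and 64.0% in endothelial-like nuclei and 13.7% and 10.1% in fibroblast-like nuclei.

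**Figure D1:**
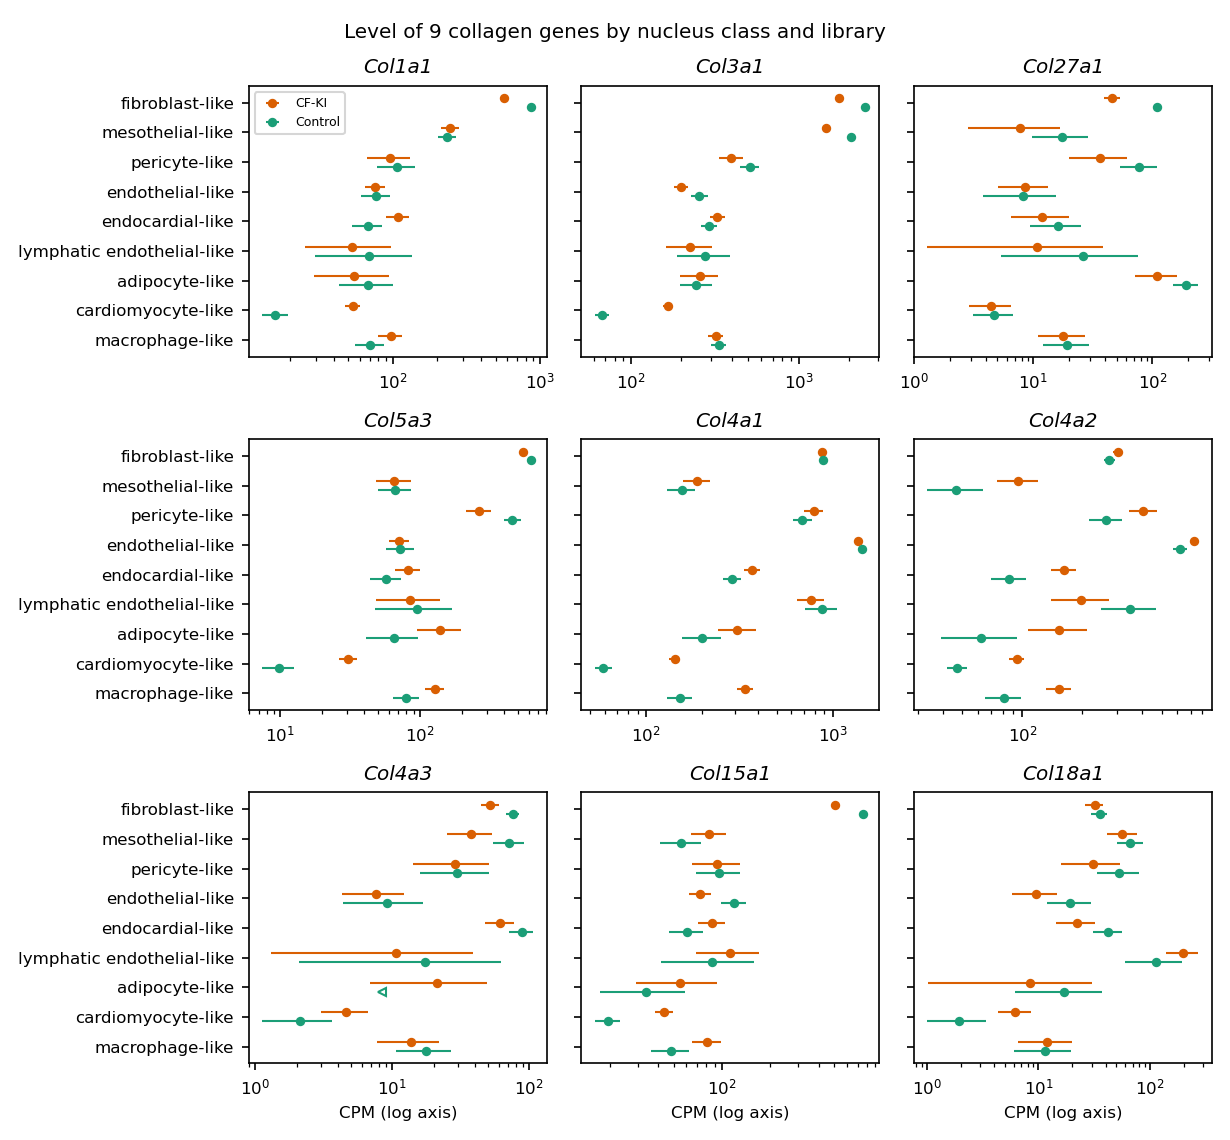
Level of 9 collagen genes (CPM of non-mitochondrial UMIs, log axis) in 9 nucleus classes, CF-KI in orange and Control in green, with 95% Poisson intervals as bars and an open triangle at the level of 3 UMIs where no UMI was found. Col1a1 and Col3a1 are highest in fibroblast-like nuclei, Col4a1 and Col4a2 in endothelial-like nuclei and Col18a1 in lymphatic endothelial-like nuclei.

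Col1a1, Col1a2, Col3a1, Col5a1, Col5a2 and Col5a3 had their highest level in fibroblast-like nuclei in both libraries. Col3a1, whose product forms fine fibres with type I collagen, came next in mesothelial-like nuclei, the lining of the heart's surface, at 1463 CPM in CF-KI and 2056 CPM in Control. Col5a3, a minor chain of type V fibres, came next in pericyte-like nuclei, at 264 and 460 CPM. Transcripts of fibroblast markers were found in every class, so collagen levels outside fibroblast-like nuclei are set beside those of the markers. The median of the 7 fibroblast markers stood at 15.3% of its fibroblast-like level in CF-KI endothelial-like nuclei and at 9.17% in Control ones. Col3a1 stood at 11.5% and 10.3% there, within the range of the markers (5.42% to 48.1% in CF-KI and 7.30% to 24.4% in Control).

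Some members were highest, among the 9 classes, outside fibroblast-like nuclei in both libraries. Col4a1 stood at 1368 (1319 to 1419) CPM in CF-KI and 1434 (1364 to 1507) in Control endothelial-like nuclei, against 873 and 892 in fibroblast-like nuclei. Col4a2 stood at 728 and 619 CPM in endothelial-like nuclei. Col18a1, whose product releases endostatin, was highest in lymphatic endothelial-like nuclei, at 197 (139 to 272) and 112 (59.8 to 192) CPM, as was Col23a1 at 107 and 69.2 CPM from 20 and 8 UMIs. In Control the intervals of both genes overlapped those of the next class. A smooth muscle-like cluster that split off at a finer clustering is not among the 9 classes. Its Col18a1 level was 139 (63.4 to 263) CPM in CF-KI and 340 (198 to 545) CPM in Control, from 9 and 17 UMIs. That Control interval lay above the one of lymphatic endothelial-like nuclei.

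Endocardial-like nuclei, the inner lining of the heart, had the highest levels of Col4a3 (61.0 and 88.1 CPM), Col4a4 (274 and 350 CPM) and Col25a1 (17.8 and 33.8 CPM). The Col4a3 and Col4a4 intervals overlapped those of fibroblast-like nuclei, where Col4a4 stood at 256 and 316 CPM, and the Col25a1 intervals those of pericyte-like nuclei. Adipocyte-like nuclei had the highest level of Col27a1, a fibrillar chain known from cartilage, at 110 (71.7 to 161) and 192 (149 to 243) CPM, and of Col11a2, from 2 and 12 UMIs, whose CF-KI interval overlapped that of cardiomyocyte-like nuclei. Mesothelial-like nuclei had the highest level of Col4a6 (24.4 and 22.1 CPM) and of Col6a5, from 6 and 10 UMIs. For Col4a6 the Control interval overlapped that of fibroblast-like nuclei, at 19.3 CPM.

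Members were also set against their fibroblast-like level, counting in a class those with at least 20 UMIs there in each library. Those above every fibroblast marker in both libraries were Col16a1, Col18a1 and Col4a5 in mesothelial-like nuclei and Col4a2 in pericyte-like nuclei. In endothelial-like and lymphatic endothelial-like nuclei they were Col4a1 and Col4a2. They were Col23a1, Col25a1, Col4a3 and Col4a4 in endocardial-like nuclei and Col27a1, Col4a1 and Col4a2 in adipocyte-like nuclei. Some members under this limit also stood above the markers in both libraries. Lymphatic endothelial-like Col18a1 stood at 620% and 318% (37 and 13 UMIs) and mesothelial-like Col4a6 at 364% and 114% (19 and 19 UMIs). Cardiomyocyte-like Col23a1 stood at 97.5% and 153% (24 and 16 UMIs). In each class and library the highest marker was Mgp, which reached 98.2% of its fibroblast-like level in CF-KI mesothelial-like nuclei. In cardiomyocyte-like nuclei Col4a2, Col4a5, Col11a2 and Col13a1 stood above the markers in both libraries, and Col4a5 had 233 and 310 UMIs there (39.7 and 50.2 CPM). In macrophage-like nuclei, the other background class, Col27a1, Col4a1, Col4a2 and Col4a4 stood above the markers in both libraries.

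The first comparison asks whether fibroblast-like nuclei, the class meant to carry the altered Nlrp3, differed in collagen transcripts between the libraries. Fibrillar collagens were lower in CF-KI. Of the 8 fibrillar members with at least 20 UMIs in the class, all 8 had a log2 ratio of CF-KI over Control below 0, 7 had an interval below 0, and 4 were lower by at least 1.5-fold. Of the 12709 genes with at least 20 UMIs in the class, 52.3% had a log2 ratio below 0, 17.4% had an interval below 0 and 16.4% one above 0, 9.47% were lower by 1.5-fold and 12.2% higher. The median log2 ratio of the fibrillar members was -0.56, beside -0.02 for all genes.

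Col1a1 and Col1a2 encode the chains of type I collagen, the main collagen of the heart's fibres. Col1a1 stood at 573 (548 to 598) CPM in CF-KI and 873 (844 to 902) CPM in Control, a log2 ratio of -0.61 (-0.69 to -0.53). Col1a2 stood at 1030 (997 to 1064) and 1591 (1553 to 1630) CPM, a log2 ratio of -0.63 (-0.69 to -0.57). For each of these genes the intervals of the libraries did not overlap. Col1a1 made up 35.7% of the UMIs of the pair in CF-KI and 35.4% in Control, so their proportion differed by less than the counting error.

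Col3a1 stood at 1733 (1690 to 1777) CPM in CF-KI and 2475 (2428 to 2524) CPM in Control, a log2 ratio of -0.51 (-0.56 to -0.47). The type V chains, which set fibre diameter, were lower as well: Col5a1 stood at 290 and 413 CPM with a log2 ratio of -0.51 (-0.62 to -0.40). Col5a2 stood at 249 and 351 CPM with a log2 ratio of -0.49 (-0.62 to -0.37). Col5a3 differed least among the fibrillar members, at 544 (521 to 569) and 625 (601 to 649) CPM with a log2 ratio of -0.20 (-0.28 to -0.11). Col27a1 differed most, at 45.8 (39.1 to 53.4) CPM in CF-KI and 110 (100 to 121) CPM in Control, a log2 ratio of -1.26 (-1.53 to -1.01). Col11a2 had 6 and 15 UMIs, and its interval of -2.77 to 0.33 included 0.

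**Figure D2:**
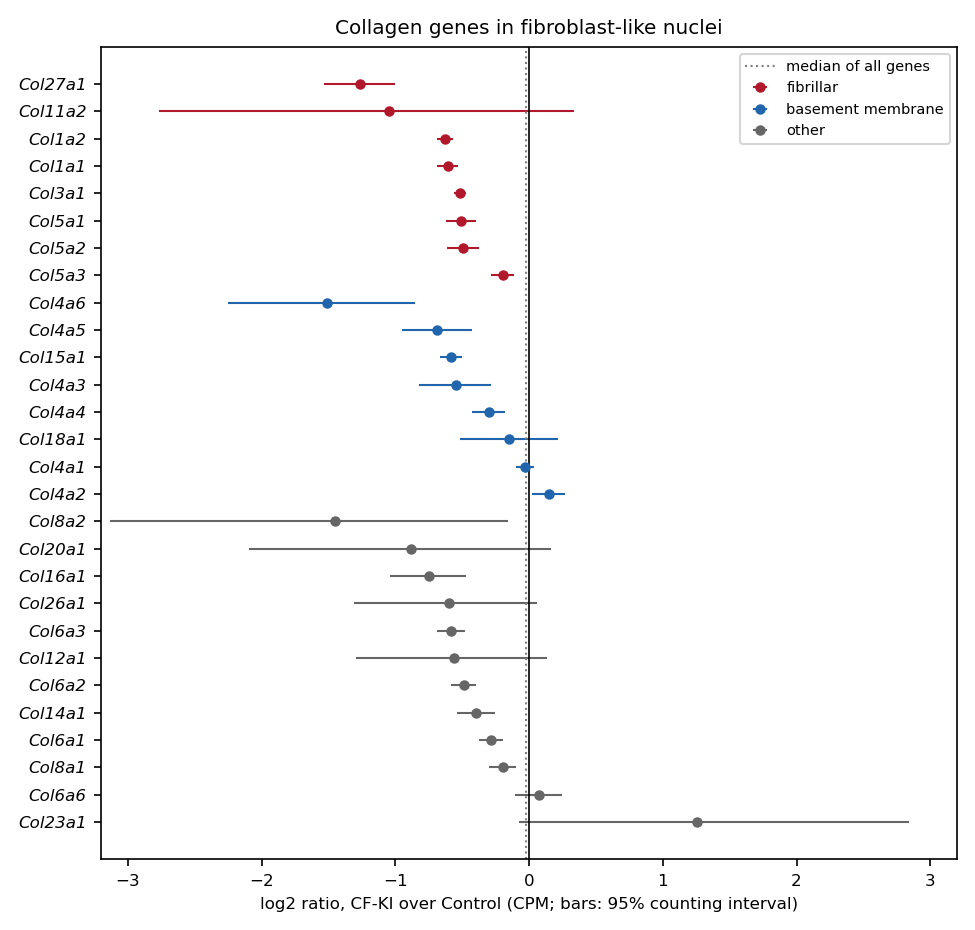
Log2 ratio of CF-KI over Control in fibroblast-like nuclei for the 28 collagen genes with at least 20 UMIs there, by type, with 95% counting intervals as bars; the dotted line is the median of all genes. Of the 28 genes, 25 lie below 0, beside 52.3% of all genes in the class, and Col4a2, Col6a6 and Col23a1 lie above it.

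Basement membrane members split by chain in fibroblast-like nuclei. All 8 had at least 20 UMIs, and 7 had a log2 ratio below 0, beside 52.3% of all genes in the class. An interval below 0 was found for 5 members (17.4% of all genes), and 3 were lower by 1.5-fold (9.47% of all genes). Their median was -0.43. Col4a1 stood at 873 (843 to 904) CPM in CF-KI and 892 (863 to 921) CPM in Control, with a log2 ratio of -0.03 (-0.10 to 0.04). Col4a2 stood at 303 (285 to 321) and 274 (258 to 290) CPM, with a log2 ratio of 0.15 (0.02 to 0.27). These chains form the type IV network found in nearly all basement membranes. The sign for Col4a2 was not kept when nuclei were standardised over bins of mitochondrial share (-0.025) or limited to 5% of mitochondrial UMIs (-0.34).

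The chains of the restricted type IV networks were lower in CF-KI over all nuclei of the class. Col4a3 stood at 51.7 and 75.7 CPM, a log2 ratio of -0.55 (-0.82 to -0.28). Its partner Col4a4 stood at 256 and 316 CPM, a log2 ratio of -0.30 (-0.43 to -0.18). Col4a5 stood at 52.5 (45.3 to 60.6) and 84.6 (76.0 to 94.0) CPM, a log2 ratio of -0.69 (-0.95 to -0.43), which was 0.069 among nuclei with at most 5% mitochondrial UMIs. Col4a6 had 24 UMIs in CF-KI and 80 in Control, or 6.70 and 19.3 CPM, a log2 ratio of -1.51 (-2.25 to -0.86).

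Of the multiplexins, which link basement membranes to the fibres beside them, Col15a1 stood at 508 (485 to 532) CPM in CF-KI and 762 (736 to 789) CPM in Control. Its log2 ratio was -0.59 (-0.67 to -0.50). Col18a1 stood at 31.8 and 35.3 CPM, with a log2 ratio of -0.15 (-0.52 to 0.21) that counting error can give.

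Of the 25 members of other types, 12 had at least 20 UMIs in fibroblast-like nuclei. Of these, 10 had a log2 ratio below 0, beside 52.3% of all genes in the class, and 7 had an interval below 0 (17.4% of all genes). By 1.5-fold, 5 were lower (9.47% of all genes) and 1 was higher (12.2%), and the median was -0.52. The lowest ratios were those of Col8a2 (6 and 20 UMIs, -1.45, interval -3.13 to -0.16), Col20a1 (11 and 24 UMIs, -0.88, interval -2.09 to 0.17) and Col16a1. Col16a1, which joins fibres to their surroundings, stood at 43.3 (36.8 to 50.7) and 73.0 (65.0 to 81.7) CPM, a log2 ratio of -0.75 (-1.04 to -0.47).

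The highest ratios were those of Col23a1, Col6a6 and Col8a1. Col23a1 had 15 and 7 UMIs and an interval of -0.07 to 2.84. Col6a6 stood at 140 (128 to 153) and 133 (123 to 145) CPM, with intervals that overlapped. Col8a1, a short-chain collagen of vessel walls, stood at 387 (367 to 408) and 444 (424 to 465) CPM, a log2 ratio of -0.20 (-0.30 to -0.10), which was 0.083 without cluster 7.

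The chains of type VI collagen, which forms beaded filaments at cell surfaces, did not share 1 ratio. The log2 ratio was -0.28 (-0.37 to -0.19) for Col6a1, -0.49 (-0.58 to -0.40) for Col6a2, -0.59 (-0.69 to -0.48) for Col6a3 and 0.07 (-0.11 to 0.25) for Col6a6. Col6a1 made up 53.0% (51.3% to 54.7%) of the UMIs of Col6a1 and Col6a2 in CF-KI and 49.4% (48.0% to 50.8%) in Control. Over all types, 12 of the 28 members in fibroblast-like nuclei were lower and 1 was higher by 1.5-fold, beside 9.47% and 12.2% of all genes.

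Enzymes and chaperones that collagen chains need in the secretory pathway and at the cell surface were lower in CF-KI fibroblast-like nuclei as well. Of 30 synthesis genes, 28 had at least 20 UMIs, and 26 of these had a log2 ratio below 0, beside 52.3% of all genes in the class. An interval below 0 was found for 22 (17.4% of all genes). By 1.5-fold, 9 were lower (9.47% of all genes) and 0 higher (12.2%), and the median was -0.46. Adamts14, a protease that removes the amino end of procollagen, had the lowest ratio, with 6 UMIs in CF-KI and 37 in Control and a log2 ratio of -2.32 (-3.95 to -1.16). Next were Loxl3, a cross-linking oxidase, at 20.1 and 39.4 CPM and -0.97 (-1.39 to -0.56), and Sparc, a collagen-binding secreted protein, at 891 and 1635 CPM and -0.88 (-0.94 to -0.81).

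The highest was P4ha2, a subunit of prolyl 4-hydroxylase, at 101 and 74.5 CPM and a log2 ratio of 0.43 (0.21 to 0.66). P4ha1, the other main subunit, was at 173 and 196 CPM and -0.17 (-0.33 to -0.02). Adamts3 (0.21, interval -0.43 to 0.84) and the lysyl hydroxylase Plod1 (-0.12, interval -0.34 to 0.09) did not differ beyond counting error. Serpinh1, the collagen-specific chaperone, stood at 475 and 640 CPM, a log2 ratio of -0.43 (-0.52 to -0.34). Serpinh1 and P4ha1 were named after their values were seen.

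Among genes of collagen breakdown and of collagen receptors, more were lower than higher. Of 13 genes, 11 had at least 20 UMIs. Of these, 8 had a log2 ratio below 0, beside 52.3% of all genes in the class, and 7 lay below the median of all genes. An interval below 0 was found for 5 (17.4% of all genes). By 1.5-fold, 3 were lower (9.47% of all genes) and 0 higher (12.2%), and the median was -0.23. Their summed level was 1072 and 1474 CPM, a log2 ratio of -0.46 (-0.52 to -0.40), beside -0.52 (-0.55 to -0.49) for the summed synthesis genes. Named after their values were seen, the genes lower by 1.5-fold were Mmp2 (-0.63) and Mmp14 (-0.66), both proteases of the matrix, and Mrc2 (-0.76), an uptake receptor for collagen fragments. The integrin chain Itga1 stood at 109 and 107 CPM, a log2 ratio of 0.02 (-0.18 to 0.22).

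Other measures moved with these ratios. The fibroblast markers themselves were lower in CF-KI for 6 of 7 genes, with log2 ratios from -1.06 (Gsn) to 0.01 (Tcf21) and a median of -0.50. Dcn stood at 7503 and 11936 CPM and Pdgfra at 523 and 691 CPM. All 7 cardiomyocyte markers were higher in the CF-KI nuclei of the class, by log2 ratios between 1.31 and 2.51, with Myl2 at 3713 and 651 CPM. The median mitochondrial share of the class was 16.2% in CF-KI and 5.91% in Control.

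Free RNA, set loose from broken cells and caught with nuclei, adds transcripts of other cells to a class. If free RNA has the make-up of the whole library, its share of a class can be set from the level of a cardiomyocyte marker in the class relative to the library. The markers gave unlike shares, 34.3% to 102% in the CF-KI and 12.0% to 76.0% in the Control fibroblast-like nuclei, so the assumption did not hold for all of them. At the median marker (65.9% and 35.9%), subtraction turned the list medians positive: 0.14 for fibrillar members, 0.24 for basement membrane members, 0.20 for other types and 0.11 for synthesis genes. The median of all genes rose with them, from -0.02 to 0.20, and 15 of the 28 members lay below it. At the lowest marker the list medians stayed below 0, at -0.26, -0.16, -0.23 and -0.22, beside 0.0022 for all genes.

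Of the 28 members, 25 had a log2 ratio below 0 as counted, 20 after subtraction at the lowest marker and 7 at the median marker. At the lowest marker the log2 ratio was -0.30 for Col1a1, -0.32 for Col1a2, -0.21 for Col3a1, -0.99 for Col27a1 and -1.34 for Col4a6, but 0.11 for Col5a3 and 0.12 for Col8a1. At the median marker it was positive for Col1a1 (0.11), Col1a2 (0.11) and Col3a1 (0.21). The share of free RNA in the differences was not otherwise tested.

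**Figure D3:**
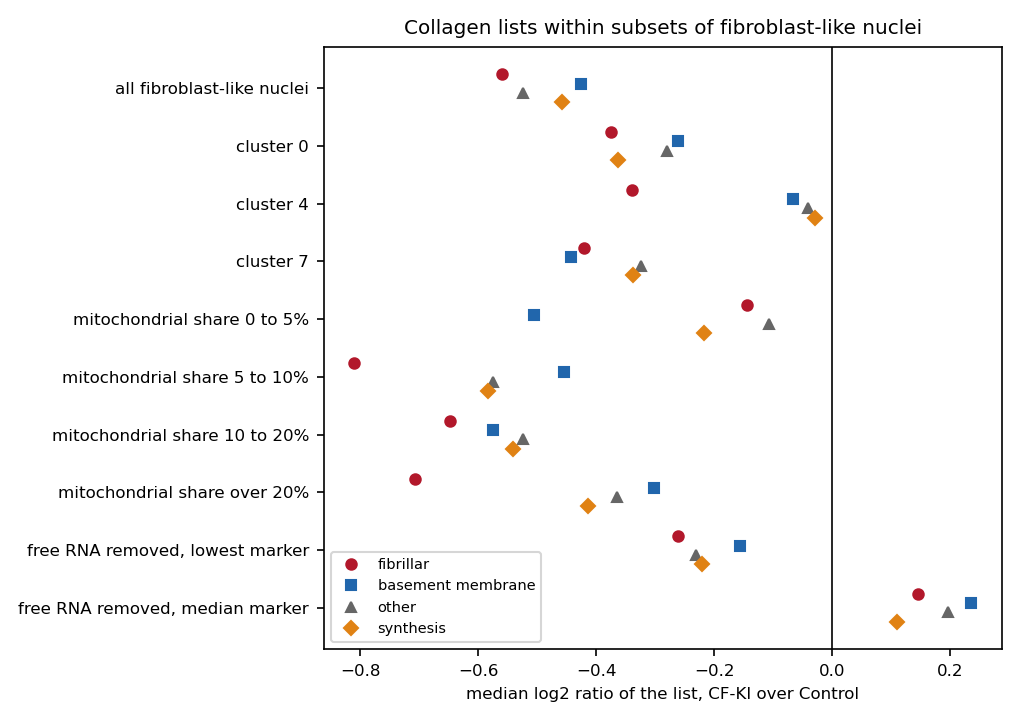
Median log2 ratio of CF-KI over Control for fibrillar, basement membrane and other collagens and for synthesis genes, in all fibroblast-like nuclei, in each of their 3 clusters, in 4 bins of mitochondrial share and after subtraction of free RNA at the lowest or the median marker. The medians lie below 0 in every subset and above 0 only where free RNA was subtracted at the median marker.

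Within clusters the fibrillar median was -0.37 in cluster 0, -0.34 in cluster 4 and -0.42 in cluster 7, and all 7 members counted in each cluster had a log2 ratio below 0. The share of all genes below 0 and their median were not taken within clusters, so the cluster counts and medians have no background beside them. Basement membrane and other members differed less in cluster 4, with medians of -0.07 and -0.04, and there the summed levels of both groups were equal within counting error (log2 ratios of 0.00, interval -0.15 to 0.14 in either group). Synthesis genes had a median of -0.03 in cluster 4, with 14 of 27 below 0 and a summed log2 ratio of -0.15 (-0.26 to -0.05), beside medians of -0.36 in cluster 0 and -0.34 in cluster 7. Fibrillar members together stood at 6275 and 8356 CPM in cluster 7, above the 3687 and 5089 CPM of cluster 0 and the 4101 and 4948 CPM of cluster 4. Cluster 7, led by Cilp, Myoc, Cd248 and Pi16, held 795 of the 4097 CF-KI nuclei of the class and 1027 of the 3572 Control nuclei.

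Within bins of mitochondrial share the fibrillar median was -0.81 between 5% and 10%, -0.65 between 10% and 20% and -0.71 over 20%. The medians of all genes in these bins were 0.02, -0.0033 and -0.13, and 0.13 in the bin up to 5%. In the bin up to 5%, which held 60 CF-KI and 1452 Control nuclei, it was -0.14, and the summed fibrillar level of 4905 and 5087 CPM did not differ beyond counting error (log2 ratio -0.05, interval -0.21 to 0.10). Clustering only barcodes of at most 5% mitochondrial UMIs gave 81 CF-KI and 1479 Control fibroblast-like nuclei. Their fibrillar median was -0.70, beside -0.14 for all genes.

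The second comparison covers the other stromal classes. In endothelial-like nuclei, 10496 genes had at least 20 UMIs, of which 13.2% were lower and 9.32% higher by 1.5-fold, 57.4% had a log2 ratio below 0, and their median was -0.08. Of 22 collagen members counted there, 4 were lower and 0 higher by 1.5-fold. The basement membrane median was -0.31 over 7 members, of which 6 lay below 0 as counted and 5 below the median of all genes. Over all 22 members 17 lay below 0 and 11 below the median of all genes.

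The abundant endothelial chains did not follow that median. Col4a1 had a log2 ratio of -0.07 (-0.16 to 0.02) in endothelial-like nuclei and Col4a2 of 0.23 (0.10 to 0.37). Col15a1 stood at 73.2 (62.1 to 85.7) CPM in CF-KI and 118 (98.8 to 141) CPM in Control, a log2 ratio of -0.69 (-1.04 to -0.34). Col4a4 (35.9 and 39.5 CPM) and the fibrillar Col1a1 (76.5 and 77.1 CPM), Col1a2 (122 and 126 CPM), Col5a1 (39.2 and 30.3 CPM), Col5a2 (49.1 and 55.0 CPM) and Col5a3 (71.3 and 72.5 CPM) had overlapping intervals. Col3a1 stood at 200 and 256 CPM, a log2 ratio of -0.36 (-0.58 to -0.13).

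In endocardial-like nuclei, where 15% of 10241 genes were higher and 11.9% lower by 1.5-fold, 4 of 23 members were higher and 4 lower. The basement membrane median was 0.35 over 7 members with 3 intervals above and 3 below 0, so the chains went apart. Of all genes there, 12.5% had an interval above and 11.9% one below 0. Col4a2 stood at 161 (139 to 186) CPM in CF-KI and 85.5 (69.2 to 104) in Control, a log2 ratio of 0.91 (0.55 to 1.28), and Col4a1 at 369 and 289 CPM, a log2 ratio of 0.35 (0.14 to 0.56). Col15a1 was at 86.4 and 60.5 CPM and 0.51 (0.06 to 0.98). Col4a3 had a log2 ratio of -0.53 (-0.99 to -0.08), Col4a4 of -0.35 (-0.57 to -0.14) and Col18a1 of -0.91 (-1.68 to -0.20). Under a limit of 5% mitochondrial UMIs the list median was -0.66, with Col4a2 at -0.072 and Col15a1 at -0.81, but only 47 CF-KI nuclei remained beside 629 Control nuclei. After subtraction of free RNA at the lowest marker Col4a1 was at -0.10 and Col4a4 at 0.045.

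Fibrillar members of endocardial-like nuclei included Col1a1 at 108 (90.5 to 129) and 67.7 (53.3 to 84.7) CPM, a log2 ratio of 0.68 (0.26 to 1.11), and Col5a3 at 82.2 and 57.0 CPM, 0.52 (0.06 to 1.01). Col1a2 (184 and 183 CPM), Col3a1 (328 and 292 CPM), Col5a1 (56.8 and 49.0 CPM) and Col5a2 (143 and 162 CPM) had overlapping intervals. The fibroblast markers in this class were higher in CF-KI for 6 of 7 genes, with a median log2 ratio of 0.26. Their median level was 21.4% of the fibroblast-like level in CF-KI and 9.79% in Control.

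**Figure D4:**
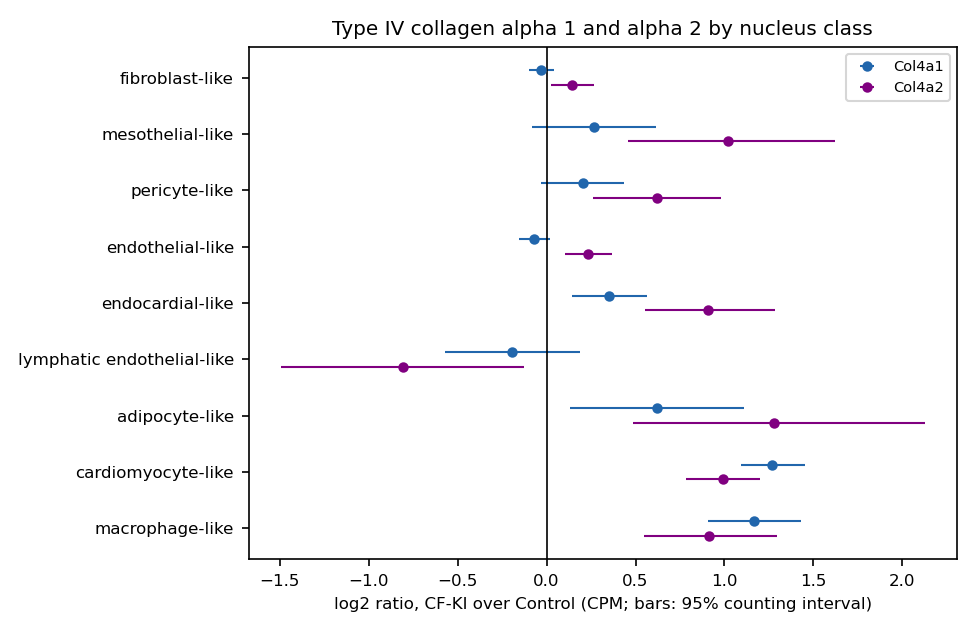
Log2 ratio of CF-KI over Control for Col4a1 (blue) and Col4a2 (purple) in each of 9 nucleus classes, with 95% counting intervals as bars. Col4a2 lies above 0 in every class but the lymphatic endothelial-like one, and above Col4a1 in 6 of the 7 stromal classes.

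Col4a2 was higher in CF-KI in several classes. In pericyte-like nuclei it stood at 404 (343 to 473) CPM in CF-KI and 263 (217 to 316) in Control, a log2 ratio of 0.62 (0.26 to 0.98). Standardised over bins of mitochondrial share, the pericyte-like ratio was -0.35. In mesothelial-like nuclei it stood at 95.1 (74.7 to 119) and 46.6 (33.3 to 63.4) CPM, a log2 ratio of 1.02 (0.46 to 1.62). With 36 and 22 UMIs in adipocyte-like nuclei, it had a log2 ratio of 1.28 (0.49 to 2.13). In lymphatic endothelial-like nuclei it was -0.81 (-1.49 to -0.13) from 37 and 40 UMIs. All 7 cardiomyocyte markers were also higher in CF-KI in these classes, with a median log2 ratio of 1.21 in pericyte-like, 1.42 in mesothelial-like and 1.55 in adipocyte-like nuclei. The median mitochondrial share was 12.3% and 1.85% in pericyte-like, 10.0% and 3.05% in mesothelial-like and 5.78% and 0.806% in adipocyte-like nuclei, and the part of these in the Col4a2 ratios was not tested. Macrophage-like nuclei, a background class here, had log2 ratios of 0.91 (0.55 to 1.30) for Col4a2 and 1.16 (0.91 to 1.43) for Col4a1.

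The share of Col4a1 in the UMIs of both chains was lower in CF-KI in 6 of the 7 stromal classes. It was 65.3% (63.8% to 66.7%) in CF-KI and 69.8% (67.9% to 71.7%) in Control endothelial-like nuclei. These intervals did not overlap. It was 69.6% and 77.2% in endocardial-like nuclei and 74.3% and 76.5% in fibroblast-like nuclei, and in these and in the mesothelial-like, pericyte-like and adipocyte-like classes the intervals overlapped. In lymphatic endothelial-like nuclei the share was 79.4% and 71.6%.

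In pericyte-like nuclei, which wrap capillaries, 25.9% of 6538 genes were higher and 15.3% lower by 1.5-fold, and the median of all genes was 0.10. Of 18 members counted, 2 were higher and 3 lower. The basement membrane median was -0.05 over 6 members, and Col4a1 stood at 793 and 688 CPM, a log2 ratio of 0.20 (-0.03 to 0.44). The fibrillar median was -0.36 over 7 members, 6 of them below 0, as were 43.7% of all genes. Col5a3 was lower, with a log2 ratio of -0.80 (-1.16 to -0.45), and so were Col1a2 at 210 and 313 CPM (-0.57, interval -0.99 to -0.17) and Col3a1 at 396 and 510 CPM (-0.36, interval -0.67 to -0.06). Col8a1 had 33 and 14 UMIs and a log2 ratio of 1.39 (0.48 to 2.43), and was named after its value was seen.

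At a finer clustering a smooth muscle-like cluster of 50 CF-KI and 35 Control nuclei split off. Its Col5a3 level was 108 CPM in CF-KI and 40.1 CPM in Control from 7 and 2 UMIs, beside 280 and 479 CPM in the pericyte-like nuclei of that clustering. Its Col18a1 level was 139 and 340 CPM from 9 and 17 UMIs, beside 7.63 and 13.8 CPM in those pericyte-like nuclei.

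In mesothelial-like nuclei, where 11% of 9280 genes were lower and 17.3% higher by 1.5-fold, 2 of 22 members were lower and 1 higher. The fibrillar median was -0.02 over 7 members, yet the abundant chains were lower: Col3a1 had a log2 ratio of -0.49 (-0.60 to -0.38) and Col1a2, at 513 and 734 CPM, of -0.52 (-0.70 to -0.33). Col1a1 stood at 246 and 235 CPM with overlapping intervals. It made up 32.4% (28.6% to 36.3%) of Col1a1 and Col1a2 UMIs in CF-KI and 24.3% (21.4% to 27.3%) in Control. Col5a1 (86.1 and 79.2 CPM), Col5a2 (108 and 100.2 CPM) and Col5a3 (65.6 and 66.4 CPM) had overlapping intervals.

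The basement membrane median of mesothelial-like nuclei was 0.03 over 8 members. Col4a3 had a log2 ratio of -0.92 (-1.62 to -0.27) from 29 and 61 UMIs, and Col15a1 of 0.58 (0.02 to 1.15). Col4a1 (186 and 155 CPM), Col4a4 (211 and 242 CPM), Col4a5 (63.0 and 66.4 CPM) and Col18a1 (56.6 and 66.4 CPM) had overlapping intervals.

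In adipocyte-like nuclei (20.7% of 5101 genes higher and 17% lower by 1.5-fold) 6 of 14 members were higher and 1 lower, and in lymphatic endothelial-like nuclei (19.6% of 3208 genes higher and 17.9% lower) 2 of 11 were higher and 1 lower. Col27a1 was lower in adipocyte-like nuclei, with a log2 ratio of -0.79 (-1.52 to -0.14). Col4a1 there was at 308 and 200 CPM, a log2 ratio of 0.62 (0.13 to 1.11), and Col3a1 at 257 and 245 CPM with overlapping intervals. Lymphatic endothelial-like Col4a1 stood at 763 and 873 CPM, also with overlapping intervals.

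Cardiomyocyte-like nuclei showed the opposite direction to fibroblast-like nuclei. Of 25 members counted, 21 were higher and 1 lower by 1.5-fold, where 30.8% of 12782 genes were higher and 7.05% lower. The fibrillar median was 1.29, or 1.07 above the median of all genes (0.23), which another scaling moves by 0.22. Different clusters held most of the class in the libraries: cluster 3 had 2428 CF-KI and 238 Control nuclei, cluster 5 had 192 and 1962, and cluster 6, with a median mitochondrial share of 63.9%, had 1874 and 227. The 7 fibroblast markers were higher in the class by a median log2 ratio of 1.51 (1.12 to 1.66 over the markers). Col3a1 stood at 166 CPM in CF-KI and 67.0 CPM in Control, 9.56% and 2.71% of its fibroblast-like level, beside a median of 10.1% and 2.52% for the fibroblast markers. In macrophage-like nuclei Col3a1 stood at 321 and 334 CPM, 18.5% and 13.5% of its fibroblast-like level.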

How the data were processed

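Nuclear RNA of mouse cardiac tissue was read in 2 libraries. The authors deposited raw UMI counts per gene and barcode, made with Cell Ranger 6.1.1 on mm10 per the submitters' processing notes; cell calling and whether intron reads were counted are not given in the sources used here. Barcodes with at least 200 genes were kept without a mitochondrial limit, and doublets called by Scrublet were removed (650, or 4.34%, in CF-KI and 299, or 2.67%, in Control, at expected rates of 12.1% and 9.01%), leaving 14317 and 10897 nuclei. They were clustered with scanpy 1.11.5 and leidenalg 0.10.2 without collagen, collagen synthesis or breakdown, mitochondrial and ribosomal genes. A cluster was named from 18 marker lists if at least 3 markers were raised, by a score chosen after the clusters were seen. A cluster that scored best for B cells also raised monocyte and T cell markers and was left unnamed. Another, of 17 CF-KI and 14 Control nuclei led by Top2a and Esco2, was left unnamed too. UMIs of a class were summed and given as CPM with exact Poisson intervals. Log2 ratios add 0.5 UMIs to each count and carry conditional exact binomial intervals, and a member counts in a class from 20 UMIs. The ratio and its interval were tested on Poisson counts simulated from the fibroblast-like sums, the model that the interval itself assumes. That test checks the calculation only, since the simulated counts held no free RNA and no variation between animals. Alternatives included TMM (edgeR 4.0.16) and median-of-ratios scaling (DESeq2 1.42.0), other filters and clusterings, mitochondrial bins and subtraction of free RNA. Subtraction at the lowest marker and single fibroblast-like clusters were added after seeing the data.

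Positions come from GENCODE vM21, which held all 44 members. Values are named for fibrillar and basement membrane members with at least 100 UMIs in a class, the 3 highest and 3 lowest ratios of other types and of synthesis genes, and members highest in the same class in both libraries; any other gene was named after its values were seen. The members and lists were chosen with earlier results of these data known.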

Additional observations from a re-analysis of the deposited data

Results flagged for a closer look

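Col1a1 differed in opposite directions between the libraries in different classes. Its log2 ratio of CF-KI over Control was 0.68 in endocardial-like nuclei and -0.61 in fibroblast-like nuclei, 1.28 apart, and the intervals of the ratios did not overlap. With 1 library per group the difference between the classes was not tested. In endocardial-like nuclei the level was 108 and 67.7 CPM, beside 573 and 873 CPM in fibroblast-like nuclei. The fibroblast markers had a median log2 ratio of 0.26 in endocardial-like nuclei and -0.50 in fibroblast-like nuclei, and their part in the difference was not tested.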

How the results depend on the processing

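No paired analysis was possible because each group has 1 library. Over 7 list medians and their alternatives, 109 of 120 values kept the sign of the value reported, and over 41 single-gene ratios 576 of 628 did. Some alternatives could change few signs, which raises these counts. TMM and median-of-ratios scaling, for example, gave log2 shifts of only -0.021 and -0.025 in fibroblast-like nuclei. In fibroblast-like nuclei, at most 5% mitochondrial UMIs gave medians of -0.70 (fibrillar), -1.10 (basement membrane), -0.82 (other types) and -0.85 (synthesis), beside -0.14 for all genes. Col4a2 was at -0.34 and Col4a5 at 0.069 under this limit. At least 500 genes gave a fibrillar median of -0.41. Cluster 7 alone gave -0.42. Clusters 0 and 4 gave -0.38 for fibrillar and -0.19 for basement membrane members, with Col8a1 at 0.083. Standardising over mitochondrial bins put Col4a2 at -0.025.

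Subtraction of free RNA at the median marker gave fibroblast-like medians of 0.14, 0.24, 0.20 and 0.11 in the same order, and single ratios of 0.11 (Col1a1), 0.11 (Col1a2), 0.21 (Col3a1), 0.23 (Col5a1), 0.18 (Col5a2), 0.55 (Col5a3), 0.12 (Col4a3), 0.36 (Col4a4), 0.15 (Col15a1) and 0.56 (Col8a1). At the lowest marker the fibrillar and basement membrane medians were -0.26 and -0.16, with Col5a3 at 0.11 and Col8a1 at 0.12.

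Among other classes, the basement membrane median at most 5% mitochondrial UMIs was -0.66 in endocardial-like nuclei (Col4a2 at -0.072, Col15a1 at -0.81) and -0.86 in pericyte-like nuclei (Col4a2 at -1.51), from only 47 and 29 CF-KI nuclei. Bins put pericyte-like Col4a2 at -0.35. Subtraction at the median marker gave 0.78 and 0.73 for these medians, and endocardial-like Col4a1 at -6.15, Col4a2 at -3.01, Col4a3 at 0.78 and Col4a4 at 0.90. At the lowest marker the endothelial-like median was -2.58, and endocardial-like Col4a1, Col4a4 and Col15a1 were at -0.10, 0.045 and -0.083. Values of -2.58 and beyond arise where subtraction leaves almost no UMIs. The causes of the other shifts were not tested. Depth limits what can be said of members under 20 UMIs in a class and of the lymphatic endothelial-like and adipocyte-like classes.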
